A study of Rattus norvegicus with 12 samples.

Results

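Ppargc1a and 9 further genes that govern mitochondrial biogenesis, 10 of the 16468 genes listed, were followed in rat neural stem cells after knockdown of the repressor REST. The 10 genes were Ppargc1a, Ppargc1b, Pprc1, Nrf1, Gabpa, Esrra, Tfam, Tfb1m, Tfb2m and Polg, each found by its symbol in both deposited tables. They were chosen by function and selected on FPKM values (fragments counted relative to transcript length and to the mapped total) of these same tables that were already known, the low Ppargc1a value after knockdown among them. Every value below is therefore a description, and none was tested.

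The cells were HCN cells, a neural stem cell line from the adult rat hippocampus. The study asked which genes depend on REST in quiescent and in proliferating progenitors. Quiescent cells (iQNP) received FGF2 and BMP4, and proliferating cells (TAP) received FGF2 without BMP4. The 4 groups were iQNP knockdown, iQNP control, TAP knockdown and TAP control. Knockdown cells were electroporated with a short hairpin RNA vector against Rest, and control cells with the empty vector, so that all groups shared electroporation. Each condition had 4 knockdown libraries and 2 control libraries, made from total RNA after removal of ribosomal RNA. The model was 1 cell line at several passages and 1 kind of knockdown vector, and whether the electroporated cells were sorted before RNA extraction was not given in the sources used here. The authors' tables hold 1 FPKM value per gene and group, made from all libraries of that group, so the values carry no SD, no interval and no test, and the tables do not give the depth of each library. These were bulk samples, in which fewer cells of a type and less RNA per cell cannot be told apart.

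Mitochondrial biogenesis needs both nuclear genes and the small mitochondrial genome. The PGC-1 coactivators, PGC-1α (Ppargc1a), PGC-1β (Ppargc1b) and PRC (Pprc1), do not bind DNA themselves but raise the output of transcription factors such as NRF1, the ETS factor GABPA (part of NRF-2) and the nuclear receptor ERRα (Esrra). NRF1 and GABPA bind the promoters of genes for respiratory chain subunits and for the mitochondrial transcription machinery. Within that machinery, TFAM packages mitochondrial DNA and starts its transcription, TFB2M acts with the mitochondrial RNA polymerase, TFB1M methylates the ribosomal RNA of the small mitochondrial ribosomal subunit, and POLG is the catalytic subunit of the polymerase that replicates mitochondrial DNA. PGC-1α is best known from brown fat, muscle and liver, where cold, exercise and fasting induce it through cyclic AMP and CREB. REST is a zinc finger repressor of neuronal genes.

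The promoter of Ppargc1a is shown because CREB sites are the known route of its induction. It covers 250 bases before the RefSeq start site and 50 from it (chr14:63634058-63634357 in GRCr8, plus strand), and the capitals mark its only exact match to the cyclic AMP response element, TGACGTCA, at positions -181 to -174.
Ppargc1a: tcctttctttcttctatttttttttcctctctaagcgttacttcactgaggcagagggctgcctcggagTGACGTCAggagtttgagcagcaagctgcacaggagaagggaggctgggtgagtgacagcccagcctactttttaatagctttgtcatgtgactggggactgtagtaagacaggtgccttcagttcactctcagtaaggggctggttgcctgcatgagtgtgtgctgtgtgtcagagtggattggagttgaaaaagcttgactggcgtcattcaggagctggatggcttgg
Of 33469 RefSeq promoters of the same length, 1.83% held TGACGTCA on either strand, a sequence that is its own reverse complement. The window was 50.3% G and C with 4 CpG pairs, against a median of 51.7% and 7 over all promoters. The other 9 promoters held 52.3% to 77% G and C and 16 to 38 CpG pairs, so that Ppargc1a had the lowest value of the 10 on both measures.

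The NRF1 core GCGCATGC and the GABPA/ETS core CCGGAAGT were searched on both strands because these factors are known to bind promoters of the mitochondrial machinery. The NRF1 core lay in the Esrra and Tfb2m promoters (2.47% of all promoters), and the ETS core in the Tfam and Polg promoters (3.81%). In the windows of 48 bases below, the capitals mark the match, and each sequence runs 5′ to 3′ along the gene's own strand.
Esrra: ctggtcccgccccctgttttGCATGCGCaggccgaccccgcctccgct
Tfb2m: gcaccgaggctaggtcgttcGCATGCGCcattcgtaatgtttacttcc
Tfam: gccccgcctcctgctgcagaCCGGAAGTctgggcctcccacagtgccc
Polg: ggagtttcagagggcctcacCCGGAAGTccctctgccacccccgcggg
They lie at chr1:213543393-213543440 (minus strand), chr13:93828612-93828659 (minus), chr20:17355297-17355344 (plus) and chr1:142808932-142808979 (minus) in GRCr8. The match began 115 bases before the start site in Esrra, 45 in Tfb2m, 56 in Tfam and 121 in Polg. In Esrra and Tfb2m the match was to the reverse complement, GCATGCGC. The ERR element TCAAGGTCA (0.433% of promoters) and TTCAGCACC, the left part of the RE1 element that REST binds (0.356%), matched in none of the 10 windows. A match is a description of the letters and not of binding, and these windows leave distant sites out. No motif search used the expression values.

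**Figure D1:**
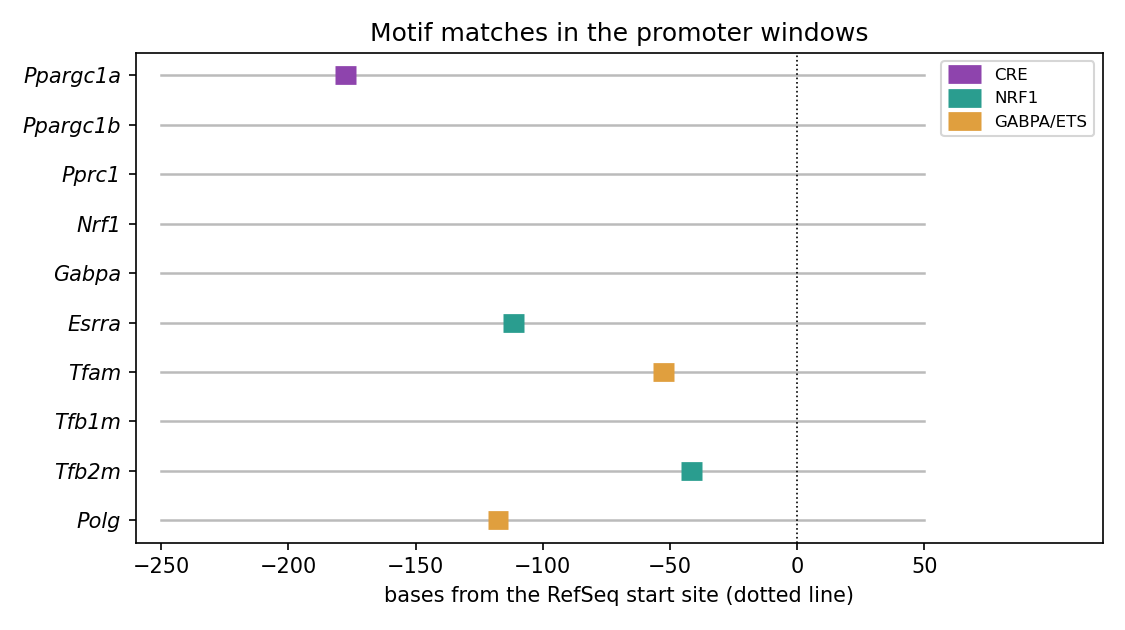
Positions of exact motif matches in the promoter windows of the 10 genes, in bases from the RefSeq start site, with 1 line per gene and 1 colour per motif. Only 5 of the 10 windows held a match, and the Ppargc1a match, a cyclic AMP response element from -181 to -174, was the farthest from its start site.

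The coactivator gene Ppargc1a (chromosome 14, 64278114 to 64370912 in rn4, the build of all loci below) had a lower FPKM in the knockdown group in both conditions. It stood at 2.47 FPKM in iQNP knockdown cells and 9.60 FPKM in iQNP control cells, a plain ratio of 0.257 or 3.89-fold lower. In TAP cells it stood at 0.390 FPKM in the knockdown and 1.06 FPKM in the control, a plain ratio of 0.366 or 2.73-fold lower, but at a level near 1 FPKM. The gene thus had its highest value in quiescent control cells and lay near or below 1 FPKM in both groups of proliferating cells. A ratio on the scale log2((FPKM + 1)/(FPKM + 1)), which understates differences of low genes, was used below, and a gene was called higher or lower where this differed by at least 2-fold. On this scale Ppargc1a was -1.61 in iQNP and -0.57 in TAP, a difference between the conditions of -1.04 that was not tested. With a pseudocount of 0.1 FPKM in place of 1 the TAP value was -1.25, past 2-fold.

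In iQNP, Ppargc1a was the 16th lowest of the 9776 genes with at least 1 FPKM in either group, and Rest itself the 11th lowest. Rest stood at 13.9 FPKM in iQNP knockdown and 48.7 FPKM in iQNP control cells (log2 ratio -1.74), and at 9.002 FPKM in TAP knockdown and 27.8 FPKM in TAP control cells (-1.53). So the targeted transcript was lower in both knockdown groups. In TAP, Ppargc1a ranked 2021st lowest of 9552 genes. The ranks describe these group values, and they carry no error.

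**Figure D2:**
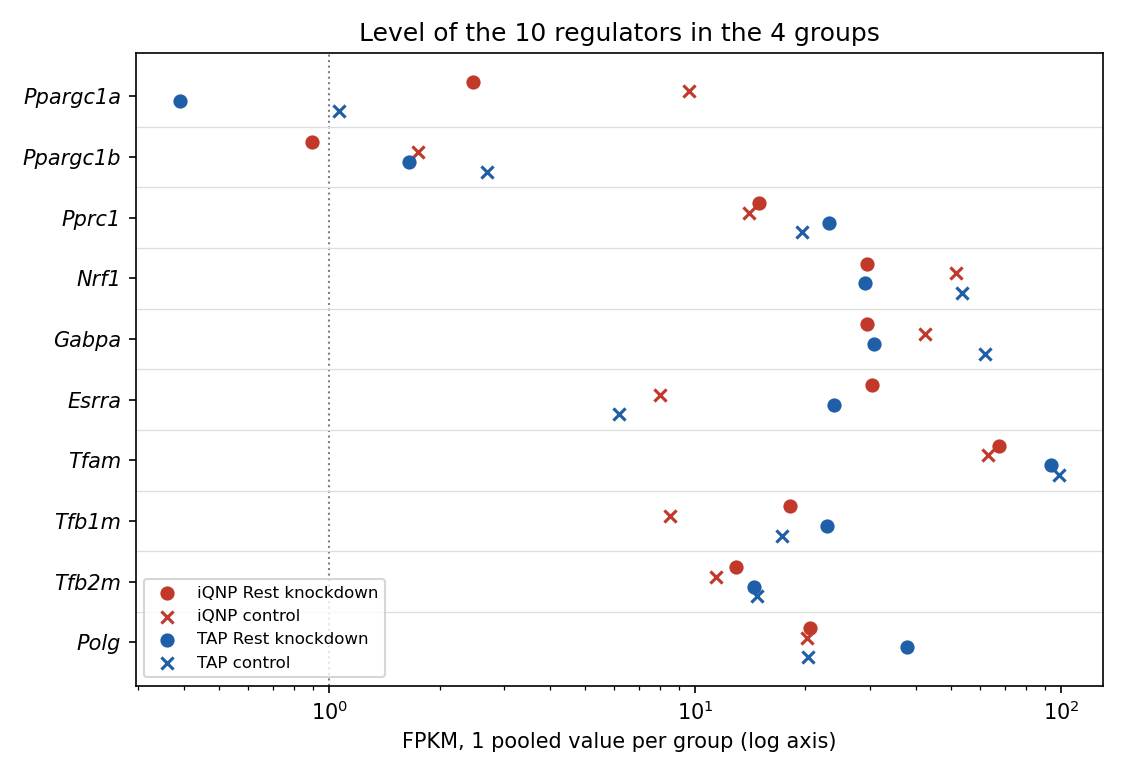
FPKM of each of the 10 genes in the 4 groups (1 pooled value per gene and group, no error available), on a log axis. Ppargc1a spans 0.390 to 9.60 FPKM, while Tfam lies between 63.0 and 98.3 FPKM in every group.

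Ppargc1a was also the coactivator that differed most between the growth conditions. Its control value was 9.60 FPKM in iQNP and 1.06 FPKM in TAP cells, a plain ratio of 9.02, and its knockdown value was 2.47 FPKM in iQNP and 0.390 FPKM in TAP cells, a plain ratio of 6.33. The log2 ratios with the pseudocount were 2.36 among controls, the 152nd highest of 9655 genes, and 1.32 among knockdown groups, the 547th highest of 9746. The tables of the 2 conditions were normalized separately by the authors, so levels set across them have that limit. The comparisons between conditions and those between knockdown and control use the same 4 values of each gene and are not independent of each other.

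The other coactivators had different levels and smaller ratios. Ppargc1b (chromosome 18, 57277757 to 57379564) was the lowest of the 10 genes in iQNP, with 0.897 FPKM in knockdown and 1.74 FPKM in control cells (log2 ratio -0.53). In TAP it had 1.65 FPKM in knockdown and 2.70 FPKM in control cells (-0.48). Both log2 ratios were negative, and neither reached 2-fold. Pprc1 (chromosome 1, 251278221 to 251294628), whose product responds to serum in other cells, had 14.9 FPKM in iQNP knockdown and 14.0 FPKM in iQNP control cells (0.08). It had 23.1 FPKM in TAP knockdown and 19.5 FPKM in TAP control cells (0.23). The plain ratios of Pprc1 were 1.06 and 1.19, the smallest departures from 1 among the 3 coactivators.

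Since FPKM is scaled by transcript length, the levels of the 3 coactivators can be set side by side within a group. Ppargc1a made up 13.5% of their summed FPKM in iQNP knockdown cells and 37.9% in iQNP control cells. Its share was 1.55% in TAP knockdown and 4.57% in TAP control cells. Pprc1 held the largest share in every group, at 81.6%, 55.3%, 91.9% and 83.8% of the sum in iQNP knockdown, iQNP control, TAP knockdown and TAP control cells. The summed FPKM of the family was 18.3 in iQNP knockdown and 25.4 in iQNP control cells, and 25.2 in TAP knockdown and 23.3 in TAP control cells. The family sum was lower in the knockdown group in iQNP, and the TAP sums lay within the shift between scalings given below.

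The genes for the partner transcription factors went in both directions. Nrf1 (chromosome 4, 56949552 to 57048149), the transcription factor of respiratory genes, had 29.5 FPKM in iQNP knockdown and 51.5 FPKM in iQNP control cells, and 29.1 FPKM in TAP knockdown and 53.5 FPKM in TAP control cells. Its log2 ratios were -0.79 and -0.86. Nrf1 was thus at nearly the same level in the 2 knockdown groups and in the 2 control groups, with knockdown over control ratios of 0.572 and 0.543. Gabpa (chromosome 11, 24323962 to 24352754), which encodes the DNA-binding subunit of NRF-2, had 29.4 FPKM in iQNP knockdown and 42.3 FPKM in iQNP control cells (-0.51). In TAP it had 30.7 FPKM in knockdown and 61.9 FPKM in control cells (-0.99), just short of 2-fold with the pseudocount and a plain ratio of 0.497. Its knockdown levels were close to each other, while its control level was lower in iQNP than in TAP (log2 ratio -0.54).

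Esrra (chromosome 1, 209586878 to 209597677), the gene of the receptor ERRα that PGC-1α coactivates, was higher in both knockdown groups. It had 30.5 FPKM in iQNP knockdown and 8.01 FPKM in iQNP control cells, and 24.0 FPKM in TAP knockdown and 6.18 FPKM in TAP control cells. The log2 ratio was 1.80 in each condition, the 501st highest of the iQNP genes and the 486th highest of the TAP genes. Esrra was the only one of the 10 called higher in both conditions, and its ratio lay on the other side of 0 from that of Ppargc1a. The tables give Esrra the same coordinates as Trmt112, a cofactor of methyltransferases, with 431 FPKM in iQNP knockdown, 608 FPKM in iQNP control, 355 FPKM in TAP knockdown and 839 FPKM in TAP control cells. The Trmt112 log2 ratios were -0.49 and -1.24. How the authors' run divided reads between the pair is not given in the sources used here, so the Esrra values are uncertain.

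Genes beside these loci were also read. Prdx5, a mitochondrial peroxiredoxin gene 479 bases from the locus that Esrra shares with Trmt112, had log2 ratios of 2.49 in iQNP and 1.99 in TAP. Bad, a cell death gene 19695 bases from that locus, had 2.11 and 1.87. Gpr137, 15479 bases from that locus, had 0.99 and 0.97. Atp5j, an ATP synthase subunit gene 162 bases from Gabpa, had 582 FPKM in iQNP knockdown and 128 FPKM in iQNP control cells (2.18), and 599 FPKM in TAP knockdown and 165 FPKM in TAP control cells (1.85). So Gabpa and its closest neighbour lay on opposite sides of 0 in both conditions, while Jam2, a junction gene 8743 bases from Gabpa, had -0.70 and -0.66. Near other members, Nolc1 (2788 bases from Pprc1) had -0.58 in iQNP and -0.87 in TAP, and Ube2d1 (14449 bases from Tfam) had -0.54 and -1.38, while Ldb1 (17371 bases from Pprc1) had 0.40 and 0.57 and Smyd3 (12679 bases from Tfb2m) had 0.54 and 0.58. Among genes that share a locus with another, 16.9% were called higher in iQNP and 17.6% in TAP, against 14.2% and 15.2% of genes that do not. The part of shared loci in the Esrra value was not tested.

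The mitochondrial effectors were expressed in every group. Tfam (chromosome 20, 18100628 to 18112682) had the highest level of the 10 genes in all groups, with 67.7 FPKM in iQNP knockdown, 63.0 FPKM in iQNP control, 93.6 FPKM in TAP knockdown and 98.3 FPKM in TAP control cells. Its log2 ratios were 0.10 in iQNP and -0.07 in TAP. Tfb2m (chromosome 13, 95228519 to 95246255) had 13.0 FPKM in iQNP knockdown, 11.4 FPKM in iQNP control, 14.5 FPKM in TAP knockdown and 14.7 FPKM in TAP control cells. Its log2 ratios were 0.17 and -0.03, so that both genes lay close to their control levels as deposited. When both groups were scaled to the same sum of FPKM over all genes, the log2 ratios were -0.42 in iQNP and -0.67 in TAP for Tfam, and -0.31 in iQNP and -0.59 in TAP for Tfb2m, so this closeness rests on the scaling.

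Tfb1m (chromosome 1, 38513708 to 38556210) had 18.1 FPKM in iQNP knockdown and 8.54 FPKM in iQNP control cells (log2 ratio 1.004), at the edge of the 2-fold limit. In TAP it had 22.9 FPKM in knockdown and 17.3 FPKM in control cells (0.39). The iQNP call was lost when each ratio was set against the median of all genes and under both rescalings described below. Tfb1m has 1 named pseudogene in RefSeq and the same coordinates as Cldn20, which reached at most 0.495 FPKM in any group. Polg (chromosome 1, 135197074 to 135212178) had the reverse pattern by condition. It had 20.6 FPKM in iQNP knockdown and 20.2 FPKM in iQNP control cells (0.03), and 37.9 FPKM in TAP knockdown and 20.3 FPKM in TAP control cells (0.87). Of its 4 values, the TAP knockdown value stood apart from the other 3.

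**Figure D3:**
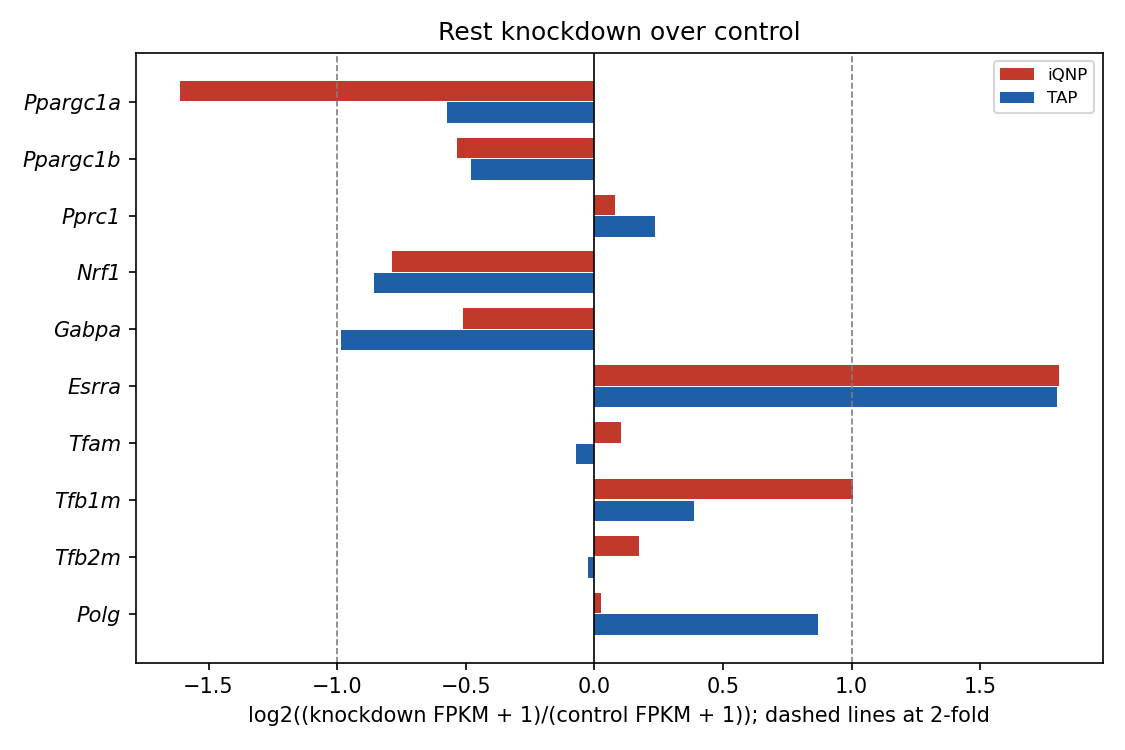
Knockdown over control, log2((FPKM + 1)/(FPKM + 1)), for the 10 genes in iQNP and TAP cells, with dashed lines at 2-fold. Ppargc1a lies at -1.61 in iQNP and -0.57 in TAP, while Esrra lies at 1.80 in both.

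Over the 10 genes, 2 were called higher in iQNP (Esrra and Tfb1m) and 1 lower (Ppargc1a), where 14.4% of the 9776 evaluated genes were called higher and 3.18% lower. In TAP, 1 was called higher (Esrra) and 0 lower, where 15.4% of 9552 genes were called higher and 6.99% lower. Counts of 0 to 2 in 10 are near what these shares give, and nothing is read from them about the set. The median log2 ratio of the 10 was 0.05 in iQNP, beside 0.01 over all evaluated genes, and -0.05 in TAP, beside 0.01. The members ranged from -1.61 to 1.80 in iQNP and from -0.99 to 1.80 in TAP. As deposited, 6 of them lay above 0 in iQNP and 4 in TAP.

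Between the growth conditions, Ppargc1a was the only one of the 10 called higher in iQNP, both among knockdown groups, where 9.67% of genes were called higher and 4.18% lower, and among controls, where 10.8% were called higher and 6.5% lower. None of the 10 was called lower in iQNP in either comparison, but Tfb1m passed as lower among controls with a pseudocount of 0.1 FPKM or the same sum, and Polg among knockdown groups with the same sum without ribosomal protein genes. The lowest log2 ratios among controls were those of Tfb1m (-0.94), Tfam (-0.63) and Gabpa (-0.54), and Pprc1 was at -0.45. Among knockdown groups the lowest was that of Polg (-0.85), followed by Pprc1 (-0.60). The median of the 10 was -0.23 among knockdown groups, beside 0.07 over all genes, and -0.39 among controls, beside 0.04.

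**Figure D4:**
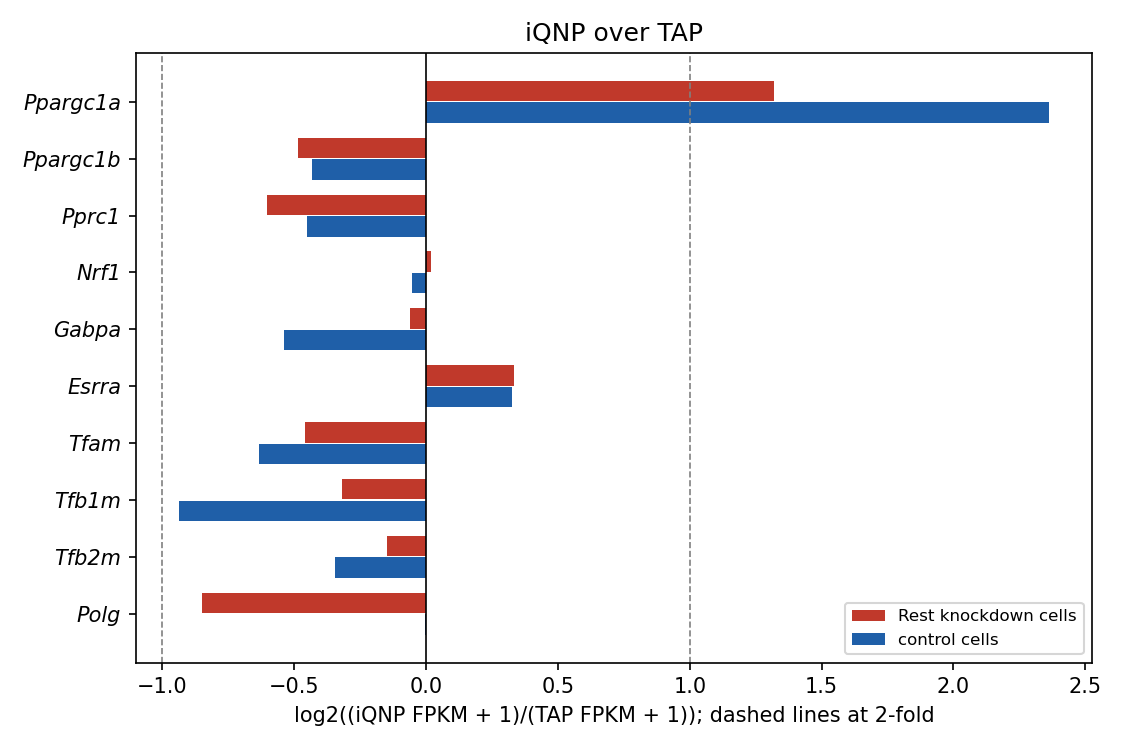
iQNP over TAP, log2((FPKM + 1)/(FPKM + 1)), for the 10 genes among knockdown and among control groups, from tables that were normalized separately. Ppargc1a lies at 1.32 among knockdown groups and 2.36 among controls, above the other 9 genes in both.

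By level, the order in iQNP control cells was Tfam (63.0 FPKM), Nrf1 (51.5), Gabpa (42.3), Polg (20.2), Pprc1 (14.0), Tfb2m (11.4), Ppargc1a (9.60), Tfb1m (8.54), Esrra (8.01) and Ppargc1b (1.74). In iQNP knockdown cells Esrra (30.5 FPKM) came next after Tfam (67.7), and Ppargc1a (2.47) stood above Ppargc1b (0.897) alone. In both TAP groups Ppargc1a was the lowest of the 10. With 1 value per group, no spread was available to say which neighbours in these orders differ.

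Scale bears on all of these ratios. The FPKM of all genes summed to 1058055 in iQNP knockdown and 734692 in iQNP control cells, and to 1014737 in TAP knockdown and 665644 in TAP control cells. Genes of cytosolic ribosomal proteins held 25.9% of the sum in iQNP knockdown and 6.52% in iQNP control cells, and 35% in TAP knockdown and 10.7% in TAP control cells. Giving both groups the same sum moved the median of all genes by -0.48 in iQNP and -0.55 in TAP, and doing so without the ribosomal protein genes moved it by -0.17 and -0.14. With the same sum, the counts over all genes were 795 higher and 2105 lower in iQNP, against 1412 and 311 as deposited, and 695 higher and 2566 lower in TAP, against 1470 and 668. Without the ribosomal protein genes they were 1124 higher and 770 lower in iQNP, and 1233 higher and 978 lower in TAP.

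Ppargc1a in iQNP and Esrra in both conditions passed 2-fold under each pseudocount and scaling tried. With the same sum, Nrf1 and Gabpa also passed as lower in both conditions. Under that scaling the medians of the 10 were -0.45 in iQNP and -0.63 in TAP, beside -0.47 and -0.54 over all genes. Pprc1, Tfam, Tfb2m and Polg in iQNP and Pprc1 and Tfb1m in TAP have ratios above 0 that are smaller than this shift, so no direction is given for them.

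A larger share of long genes than of short genes was called lower in the knockdown groups. Of evaluated genes that span over 50000 bases, 7.34% were called lower in iQNP (181 of 2467), against 1.78% of shorter genes (130 of 7309). In TAP the shares were 9.87% and 6.03%. Ppargc1a (92798 bases), Ppargc1b (101807) and Nrf1 (98597) are such long genes, and all 3 had ratios below 0 in both conditions. The median log2 ratio of all such long genes was itself below 0, at -0.47 in iQNP and -0.33 in TAP. Gabpa, a shorter gene (28792 bases), also had ratios below 0 in both conditions. Among long genes with 5 to 20 FPKM in iQNP control cells, a band that holds Ppargc1a, 4.6% were called lower (37 of 805). The part of gene length in the Ppargc1a value was not tested.

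The 6 genes whose 4 group values were most like those of Ppargc1a were found among 8391 genes with at least 1 FPKM in every group. Likeness was the root mean square difference over the 4 values of log2(FPKM + 1), each gene centred on its own mean. They were Arid5b, a DNA-binding regulator (0.13), Nefm, a neurofilament subunit (0.19), Itga1, a collagen-binding integrin (0.20), Rmrp, the RNA of RNase MRP (0.22), Hmga2, a chromatin protein of progenitors (0.23), and Lrrc8b, a subunit of volume-regulated anion channels (0.24). Arid5b had 59.0 FPKM in iQNP knockdown, 158 FPKM in iQNP control, 24.7 FPKM in TAP knockdown and 30.4 FPKM in TAP control cells. Nefm had 6.10 FPKM in iQNP knockdown, 14.5 FPKM in iQNP control, 1.10 FPKM in TAP knockdown and 2.65 FPKM in TAP control cells. Like Ppargc1a, each of the 6 was highest in iQNP control cells, which follows from choosing them by these same values. Ppargc1a itself, at 0.390 FPKM in TAP knockdown cells, did not meet the minimum set for the genes compared. Likeness over 4 values is a description of these groups.

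Of 15 listed partner transcription factors and mediators of PGC-1 in the tables, 11 were evaluated in iQNP and 10 in TAP. Only Rxrb, which encodes a partner of nuclear receptors, was called higher, with 24.7 FPKM in iQNP knockdown and 6.41 FPKM in iQNP control cells (log2 ratio 1.80), and 25.4 FPKM in TAP knockdown and 6.43 FPKM in TAP control cells (1.83). None was called lower in iQNP as deposited, but 3 were with the same sum of FPKM (median -0.60) and 3 with the same sum without ribosomal protein genes (-0.30). In TAP, 2 were called lower as deposited and 3 with the same sum. Over all genes as deposited, 14.4% were called higher and 3.18% lower in iQNP, and 15.4% and 6.99% in TAP. With the same sum, 2105 of 9776 genes were called lower in iQNP and 2566 of 9552 in TAP. Yy1, a factor that acts with PGC-1α on mitochondrial genes, had 36.5 FPKM in TAP knockdown and 81.7 FPKM in TAP control cells (-1.14). Med1, a Mediator subunit, had 50.2 FPKM in TAP knockdown and 114 FPKM in TAP control cells (-1.16). In iQNP the log2 ratios of Yy1 and Med1 were -0.85 and -0.95. The list's median was -0.14 in iQNP and 0.35 in TAP, where it was -0.10 with the same sum of FPKM. Foxo1, a forkhead factor that PGC-1α coactivates in liver, was called higher in iQNP than in TAP, with 11.4 FPKM in iQNP knockdown and 3.28 FPKM in TAP knockdown cells (1.54), and 23.4 FPKM in iQNP control and 7.27 FPKM in TAP control cells (1.56).

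Regulators of Ppargc1a itself included lower and higher genes. Of 13 evaluated in each condition, 2 were called higher and 3 lower in iQNP, and 3 higher and 3 lower in TAP. The medians were -0.50 and -0.34. Over all genes, 14.4% were called higher and 3.18% lower in iQNP, and 15.4% and 6.99% in TAP. Scaled to the same sum of FPKM, 1 was called higher and 6 lower in iQNP (median -0.95). In TAP, 2 were called higher and 6 lower (median -0.88). Over all genes that scaling called 795 higher and 2105 lower of 9776 in iQNP, and 695 higher and 2566 lower of 9552 in TAP. Atf2, a factor that binds the cyclic AMP response element, had 43.5 FPKM in iQNP knockdown and 94.0 FPKM in iQNP control cells (-1.10), and 32.3 FPKM in TAP knockdown and 94.4 FPKM in TAP control cells (-1.52). Crtc1, a CREB coactivator, had 25.6 FPKM in iQNP knockdown and 57.0 FPKM in iQNP control cells (-1.12). The catalytic AMPK subunits were the other lower genes beside Mef2d, a transcription factor of muscle and neurons. Prkaa2 was called in iQNP (-1.07, and -0.89 in TAP), and Prkaa1 (-1.41) and Mef2d (-1.13) were called in TAP, and their ratios in iQNP were -0.96 and -0.56.

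Kat2a, the acetyltransferase GCN5 that restrains PGC-1α, had 38.1 FPKM in iQNP knockdown and 14.9 FPKM in iQNP control cells (1.30), and 67.2 FPKM in TAP knockdown and 23.6 FPKM in TAP control cells (1.47). Tfeb, a lysosomal transcription factor, had 3.98 FPKM in TAP knockdown and 0.339 FPKM in TAP control cells (1.90). Prmt1, an arginine methyltransferase, was listed at 249.4 FPKM in iQNP knockdown and 0.506 FPKM in iQNP control cells, and at 411 FPKM in TAP knockdown and 0.775 FPKM in TAP control cells. It has 3 named pseudogenes, and how their reads were divided is not known here, so its ratio is uncertain.

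Genes of mitochondrial DNA replication and transcription were mostly not called as deposited. Of 15 evaluated, 1 was called higher in iQNP and 2 in TAP, none was called lower, and the medians were 0.14 and -0.25. Over all genes, 14.4% were called higher and 3.18% lower in iQNP, and 15.4% and 6.99% in TAP. Polrmt, the mitochondrial RNA polymerase that works with TFAM and TFB2M, had 11.5 FPKM in iQNP knockdown and 4.72 FPKM in iQNP control cells (1.13), and 13.4 FPKM in TAP knockdown and 3.29 FPKM in TAP control cells (1.75). Endog, a mitochondrial nuclease, had 3.51 FPKM in TAP knockdown and 0.287 FPKM in TAP control cells (1.81). With the same sum of FPKM no gene of the list was called higher in iQNP and 2 were called lower (median -0.35). In TAP, 2 were called higher and 3 lower (median -0.79). Over all genes that scaling called 795 higher and 2105 lower of 9776 in iQNP (median -0.47). In TAP it called 695 higher and 2566 lower of 9552 (median -0.54).

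The 5 gene lists were all chosen with earlier results of these data known. Of them, known targets of PGC-1 and NRF1 had the largest share of genes called higher. Of 18 evaluated, 7 were called higher and 0 lower in iQNP, and 8 higher and 1 lower in TAP. The medians were 0.83 and 0.61. Over all genes, 14.4% were called higher and 3.18% lower in iQNP, and 15.4% and 6.99% in TAP. Cycs, the electron carrier cytochrome c, had 443 FPKM in iQNP knockdown and 24.8 FPKM in iQNP control cells (4.11), and 407 FPKM in TAP knockdown and 29.9 FPKM in TAP control cells (3.72). Cox4i1, a subunit of cytochrome c oxidase, had 1422 FPKM in iQNP knockdown and 469.9 FPKM in iQNP control cells (1.60), and 1254 FPKM in TAP knockdown and 296 FPKM in TAP control cells (2.08). Txn2, the mitochondrial thioredoxin, had log2 ratios of 2.08 in iQNP and 2.17 in TAP. The lower gene in TAP was Cat, the catalase of peroxisomes, with 57.7 FPKM in knockdown and 135 FPKM in control cells (-1.21).

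So Ppargc1a and the median of its listed known targets lay on opposite sides of 0 as deposited. Some of the targets called higher have named pseudogenes and some have none. Cycs has 7 named pseudogenes, and Cox4i1 and Txn2 have 1 each. Prdx5 (2.49 in iQNP and 1.99 in TAP), Txnrd2 (1.16 and 1.39) and Sirt3 (1.38 and 1.39) have 0. Without the genes that have a named pseudogene, 11 remained, with medians of 0.15 in iQNP and -0.19 in TAP. Of these, 3 were called higher and 0 lower in iQNP, and 4 higher and 1 lower in TAP. Over all genes, those with a named pseudogene included, 14.4% were called higher and 3.18% lower in iQNP, and 15.4% and 6.99% in TAP. Shares over all genes without a named pseudogene were not computed, so these counts have no like background. With the same sum of FPKM and all 18 genes, 4 were called higher and 3 lower in iQNP (median 0.31). In TAP, 4 were called higher and 2 lower (median 0.09). Over all genes that scaling called 795 higher and 2105 lower of 9776 in iQNP, and 695 higher and 2566 lower of 9552 in TAP. The part of pseudogenes in these values was not tested.

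Mitochondrial dynamics and mitophagy genes had medians of -0.22 in iQNP and -0.31 in TAP over 15 genes. Of these, 3 were called higher in iQNP and 2 in TAP, and none lower. Over all genes, 14.4% were called higher and 3.18% lower in iQNP, and 15.4% and 6.99% in TAP. With the same sum of FPKM, 2 of the list were called higher and 6 lower in iQNP (median -0.73). In TAP, 0 were called higher and 6 lower (median -0.91). Over all genes that scaling called 795 higher and 2105 lower of 9776 in iQNP (median -0.47). In TAP it called 695 higher and 2566 lower of 9552 (median -0.54). Fis1, a fission adaptor, had 221 FPKM in iQNP knockdown and 59.0 FPKM in iQNP control cells (1.89), and 137 FPKM in TAP knockdown and 57.1 FPKM in TAP control cells (1.25). Bnip3, a mitophagy receptor with 8 named pseudogenes, had log2 ratios of 2.98 in iQNP and 1.58 in TAP, and Mff, another fission adaptor, had 1.10 in iQNP. Without the genes that have a named pseudogene, 11 of the list remained. Of these, Mff alone was called higher in iQNP, none was in TAP, and none was called lower in either condition. Shares over all genes without a named pseudogene were not computed, so these counts have no like background.

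**Figure D5:**
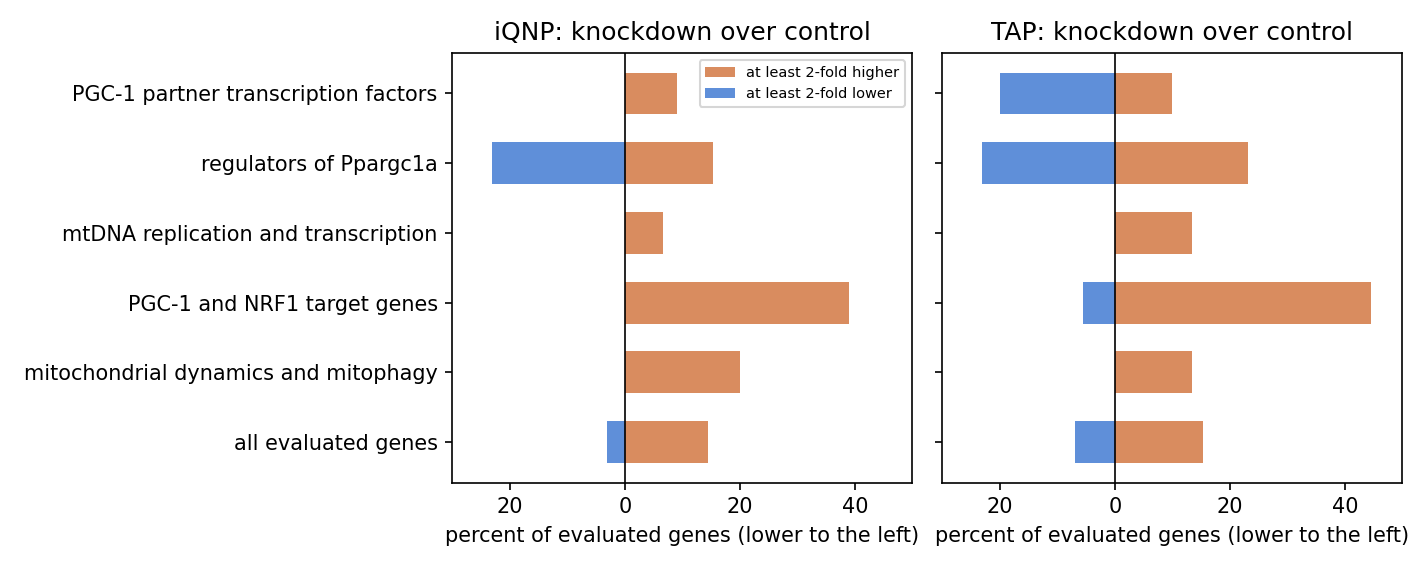
Percent of evaluated genes called at least 2-fold higher (bars to the right) and lower (bars to the left) in knockdown over control, for 5 gene lists and all evaluated genes. The lists were chosen with earlier results of these data known. The list of PGC-1 and NRF1 targets reaches furthest to the right, 7 of 18 genes in iQNP and 8 of 18 in TAP, where 14.4% and 15.4% of all genes were called higher.

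Cell identity was checked on marker genes. All 8 neural stem and progenitor markers reached 1 FPKM in every group, with summed levels of 4106 FPKM in iQNP knockdown, 4208 FPKM in iQNP control, 2871 FPKM in TAP knockdown and 2669 FPKM in TAP control cells. Of markers of other cell types, 5 or 6 of 6 for neurons (summed 269, 330, 177 and 280 FPKM in the same order of groups), 3 or 4 of 5 for astrocytes (380 to 562 FPKM) and 5 of 7 for oligodendrocyte lineage cells (804 to 1129 FPKM) reached 1 FPKM. Aqp4, Mog and Mag did not. Microglia had 1 of 6, endothelial cells 0 of 4, and fibroblasts and mural cells at most 1 of 5, with summed levels of at most 16.9 FPKM. Astrocyte markers were higher in iQNP than in TAP, as Ppargc1a was, with log2 medians of 1.41 among knockdown groups and 1.40 among controls. Their part in the Ppargc1a values was not tested.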

How the data were processed

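RNA-seq libraries of HCN cells in 2 growth conditions were grouped by the labels, with 4 knockdown and 2 control libraries in each condition. Per the submitters' processing notes, the authors mapped reads to rat build rn4 with TopHat2 and ran Cuffdiff, with versions not given in the sources used here. The FPKM values deposited by the authors are 1 per gene and group, in 2 tables of 16468 genes each that are marked as revised. What was revised is not stated. The authors' columns of fold change, test statistic, p, q and significance were not used.

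Genes with at least 1 FPKM in either group were evaluated, and called where log2((FPKM + 1)/(FPKM + 1)) passed 2-fold. The tables give neither depth per library nor replicate error, and no test was run. The tolerance of 0.25 log2 units, the span limit of 50000 bases and the neighbour distance of 30000 bases were set with the data known, as were the 10 genes and all lists, chosen with earlier results of these data known. Text names all 10 genes, Rest, up to 4 called genes per list by size of change, and the 6 genes most like Ppargc1a. Other genes were named after their values were seen. Promoters and names came from RefSeq tables of GRCr8, whose symbols matched 13319 of 16468 (80.9%) and 10 of 10 members. Pseudogenes were assigned by symbol. Python 3.11.15, numpy 2.4.6, pandas 2.3.3 and matplotlib 3.10.9 were used, and the calculation was tested on simulated data.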

Additional observations from a re-analysis of the deposited data

How the results depend on the processing

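Alternatives varied the pseudocount, the scaling, the minimum and the fold. With a pseudocount of 0.1 FPKM, the Ppargc1a log2 ratio of knockdown over control was -1.92 in iQNP and -1.25 in TAP, and that of iQNP over TAP was 2.39 among knockdown groups and 3.06 among controls. With no pseudocount it was -1.96 for knockdown over control in iQNP and 3.17 for iQNP over TAP among controls, and the other Ppargc1a ratios had no value, since 1 group lay below 1 FPKM. These moves follow from the smaller pseudocount. With the same sum of FPKM it was -2.03 in iQNP. Genes called higher numbered 795 in iQNP and 695 in TAP with the same sum, 2461 and 2527 at 1.5-fold, and 660 and 641 at 3-fold. Genes called lower numbered 2105 in iQNP and 2566 in TAP with the same sum, 1782 and 1957 at 1.5-fold, and 18 and 90 at 3-fold. In iQNP they also numbered 505 with the pseudocount of 0.1 and 770 with the same sum without ribosomal protein genes. The median of the 10 genes was -0.45 in iQNP and -0.63 in TAP with the same sum. The cause of the unequal sums was not tested. Of 178 values under alternatives of the 9 members other than Ppargc1a, 158 moved by less than 0.25 log2 units and 20 by more. Among called values 0 changed sign, but only Esrra and Tfb1m were called among these members. Uncalled values did change sign with the same sum, such as Pprc1 (0.23 to -0.35) and Tfb1m (0.39 to -0.19) in TAP. Leaving out genes that share a locus, chosen after seeing the data, gave 1281 higher and 294 lower in iQNP and 1338 higher and 627 lower in TAP. No paired analysis was possible because each group has 1 pooled value, and leaving out libraries in turn was not run for the same reason. The limits are the lack of replicate error, low levels of Ppargc1a and Ppargc1b, shared loci of Esrra and Tfb1m, and scaling.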
